A study of Mus musculus with 12 samples.

Results

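The cadherin superfamily was described here as 33 genes for cell-cell adhesion and recognition molecules, out of 18193 genes with a probe set of a single gene symbol on the arrays. Each gene was read from 1 probe set, the one with the highest mean over all 12 arrays. The set holds 5 type I classical cadherins, 8 type II classical cadherins, the GPI-anchored Cdh13, 3 delta-1, 5 delta-2 and 1 other nonclustered protocadherin, 4 genes of the Fat and Dachsous class, 3 Celsr genes and 3 calsyntenins. Of the 33, 28 had a mean above 5.183, the median of all values, in at least 1 group and were tested, and Cdh5, Cdh8, Pcdh1, Pcdh20 and Celsr1 did not.

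The study measured mouse cells of the BL6 strain, all p53-/-, on 12 arrays in 6 groups of 2. NSC are neural stem cells taken from the telencephalon at embryonic day 14.5 and grown without serum as floating spheres. OPC are oligodendrocyte precursor cells, induced from such stem cells with PDGFAA at 10 ng/ml, bFGF at 2 ng/ml and 0.25% serum and purified by immunopanning. AST are astrocytes, induced by 10% serum for 3 weeks. The groups NSCL61, OPCL61 and ASTL61 are stable lines derived from these parents by electroporation with HRasL61, an oncogenic Ras, on a plasmid that also carries EGFP, together with a neomycin resistance plasmid. Selection used neomycin at 0.5 mg/ml, and GFP-positive cells were then sorted. None of these steps is described for the parents, so a line-against-parent difference cannot be told apart from an effect of electroporation, selection, sorting or time in culture. Whether a line is 1 clone or a pool, and whether the 2 arrays of a group came from separate cultures, is not stated. The p-values weigh each difference against the spread between arrays within groups, pooled over all 6 groups and moderated across genes. That spread may be technical.

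Cadherins are calcium-dependent adhesion proteins. The classical cadherins bind the same or a similar cadherin on the next cell and hold the actin cytoskeleton through beta-catenin, alpha-catenin and p120 catenin bound to their tails. Delta protocadherins lack that catenin link and act in cell sorting and circuit formation in the brain. Fat4 and Dchs1 are receptor and ligand in planar polarity and growth control, Celsr proteins are the multi-pass core cadherins of planar cell polarity, and calsyntenins are neuronal membrane cadherins. In the developing brain Cdh2, N-cadherin, forms the junctions of neural progenitors, and Cdh1, E-cadherin, is typical of epithelia.

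The identities of the groups were compared with marker genes first, each counted as above or below the median of all values by its group mean. The OPC arrays had all 6 OPC markers above the median of all values, with Olig2 at 12.31 and 12.24 log2 signal, and OPCL61 had 5 of 6, with Olig2 at 6.82 and 5.90. NSC, NSCL61, AST and ASTL61 each had 3 of 6 above it. OPC also had 5 of 7 astrocyte markers above the median, with Gfap at 7.73 and 6.07, and Slc1a2 and Aldh1l1 below it. Of the oligodendrocyte markers, Mbp read 10.34 and 9.29 in OPC, while Mog lay below the median in every group. The NSC arrays matched their label only in part. Sox2 was 4.41 and 6.79 there against at least 10.07 on each of the other 10 arrays. Of 7 neural stem cell markers 4 lay above the median in NSC, among them Nes at 8.36 and 8.15. Prom1, Fabp7 and Hes5 lay below it. The count was 6 in NSCL61, OPC and OPCL61 and 5 in AST and ASTL61. All 8 fibroblast and pericyte markers lay above the median in NSC, with Col1a1 at 12.61 and 12.93 and Rgs5 at 7.57 and 4.85. Both AST arrays read 5.41 and 5.73 for Gfap, the defining astrocyte gene, close to the median of all values. Of 7 astrocyte markers 4 lay above the median in AST, among them Gja1 at 11.80 and 11.67, and Aqp4, Slc1a2 and Aldh1l1 lay below it. In AST 5 of 8 fibroblast and pericyte markers also lay above the median, with Col1a1 at 11.51 and 10.74. A comparison with NSC cannot be made without these arrays. The comparisons among the 3 lines have no NSC mean in them, but their variance is estimated over all 12 arrays, NSC included. The spread of the difference between the arrays of a group (SD over probe sets) ran from 0.193 for NSCL61 to 0.416 for OPCL61. In bulk RNA, fewer cells of a type and less RNA per cell cannot be told apart. All levels below are log2 signals, where a difference of 1 is a doubling, and levels were compared between groups only within a gene. Signal under 5.183 may be background, so a difference to or from such a level may understate the change.

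Promoter sequences are shown for the 4 members with the largest differences among those with a RefSeq window, 2 neighbouring pairs on chromosomes 14 and 15, so that the genes can be placed. Pcdh8 and Pcdh17 lie on chromosome 14 with only Olfm4 between them among protein-coding genes, and Cdh6 and Cdh10 lie on chromosome 15 with only Cdh9 between them. Each line gives the 250 bases before the annotated start, 5′ to 3′ on the gene's strand, with every CG dinucleotide in capitals. They are credited to RefSeq, build GRCm38.p6.
Pcdh8 (chr14:79771313-79771562, minus strand): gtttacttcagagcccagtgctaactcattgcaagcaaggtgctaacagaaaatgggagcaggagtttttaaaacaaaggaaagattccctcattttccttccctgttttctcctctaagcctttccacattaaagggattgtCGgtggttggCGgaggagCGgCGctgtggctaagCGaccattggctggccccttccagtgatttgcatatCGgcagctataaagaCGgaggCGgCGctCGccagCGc
Pcdh17 (chr14:84443313-84443562, plus strand): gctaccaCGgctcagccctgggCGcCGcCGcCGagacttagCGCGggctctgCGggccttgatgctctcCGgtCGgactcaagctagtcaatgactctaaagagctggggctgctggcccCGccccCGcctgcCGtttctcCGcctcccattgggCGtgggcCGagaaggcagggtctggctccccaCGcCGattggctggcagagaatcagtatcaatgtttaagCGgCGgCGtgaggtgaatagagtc
Cdh6 (chr15:13173676-13173925, minus strand): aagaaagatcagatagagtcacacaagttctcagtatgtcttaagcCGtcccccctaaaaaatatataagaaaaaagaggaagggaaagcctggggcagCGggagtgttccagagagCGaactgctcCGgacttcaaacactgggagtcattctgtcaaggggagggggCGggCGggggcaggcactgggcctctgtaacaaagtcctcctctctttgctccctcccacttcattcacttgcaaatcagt
Cdh10 (chr15:18820079-18820328, plus strand): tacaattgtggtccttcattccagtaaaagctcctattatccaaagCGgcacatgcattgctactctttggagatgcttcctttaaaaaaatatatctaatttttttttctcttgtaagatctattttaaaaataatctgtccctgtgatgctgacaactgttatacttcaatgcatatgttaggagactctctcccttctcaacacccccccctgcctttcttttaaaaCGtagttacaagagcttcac

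These windows hold 11 CG dinucleotides for Pcdh8, 21 for Pcdh17, 6 for Cdh6 and 2 for Cdh10, where the median of 32851 RefSeq promoter windows of the same length was 6 and the quartiles were 2 and 16. Pcdh8 has the letters TATAAA 30 bases before its start, which 7.59% of all windows hold on the gene strand. The E-box CACCTG, the letters bound by the Snail and Zeb repressors of Cdh1, was searched on both strands, where its reverse is CAGGTG. It was found in the windows of Celsr2, Clstn3 and Fat1, 3 of the 22 members with a window, and in 17.2% of all windows. Cdh1 itself had no window here, so its promoter was not searched. A match describes letters and is not a binding site.

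**Figure D1:**
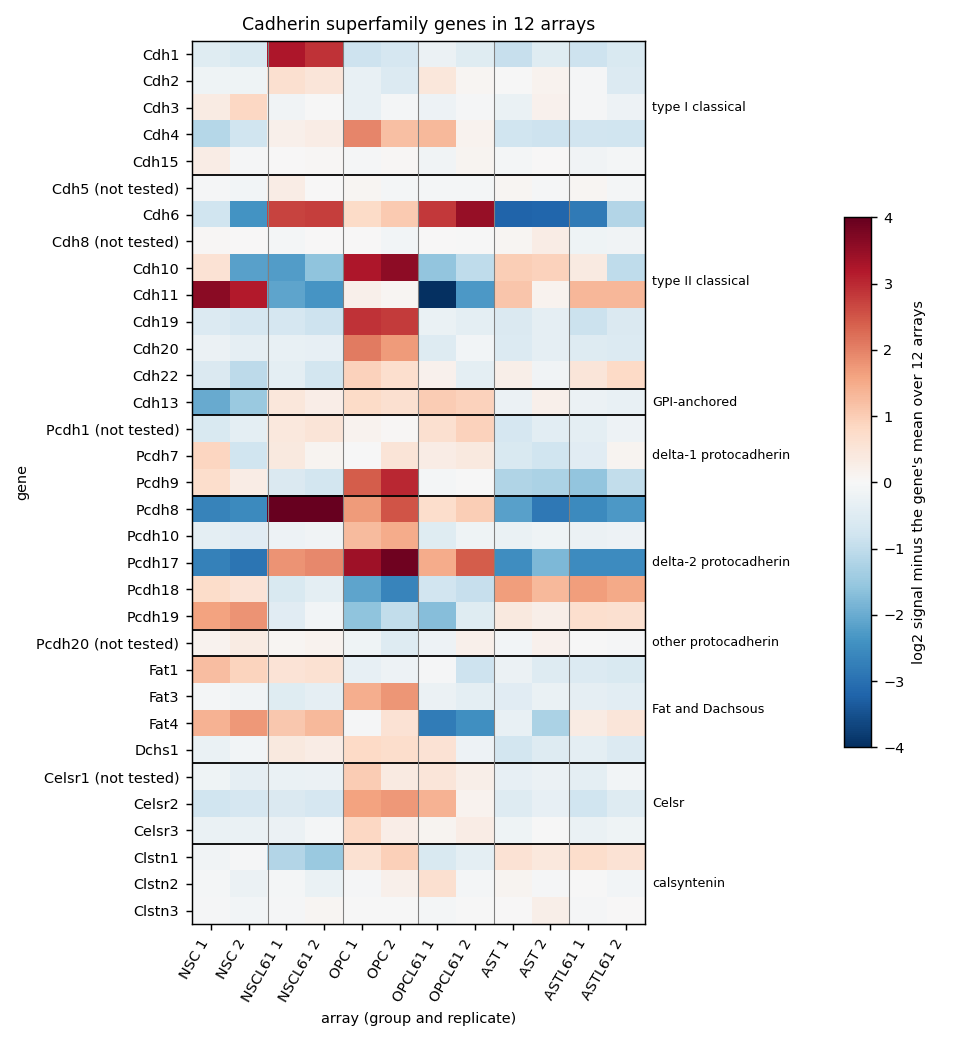
Log2 signal of the 33 cadherin genes on the 12 arrays, shown for each gene as the difference from its own mean over all arrays, with colours capped at -4 and 4. OPC was the highest group for 14 members, NSC for 7, OPCL61 for 5, NSCL61 for 4, AST for 2 and ASTL61 for 1. This includes 6 members with a range under 1 over all arrays: Cdh5, Cdh8, Cdh15, Pcdh20, Clstn2 and Clstn3. Cdh8 and Clstn3 are the members highest in AST. The highest group was not counted over all genes.

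The parental cell types were compared first, since they set the level from which each line is read. The cadherins of OPC differed widely from those of both other parents. In limma's moderated test over 12787 genes, with Benjamini-Hochberg adjustment and a threshold of 0.05, 22 of 28 tested members differed between OPC and NSC, 16 higher and 6 lower in OPC, where 51.4% of all tested genes passed (27.1% higher, 24.3% lower). Without the filter 25 of all 33 members passed, against 38.2% of 18193 genes. Between OPC and AST 18 of 28 differed, 16 higher and 2 lower in OPC, against 51.6% of all genes (26% higher, 25.7% lower). With no filter 20 of all 33 members passed there, 18 higher and 2 lower, and the share of all genes was not counted. Cdh19, Pcdh10 and Fat3 had a group mean above 5.183 in OPC alone, so they entered both comparisons through OPC. Their adjusted p against AST with no filter was 7.08e-08, 6.92e-06 and 2.02e-06. The median difference of all 33 members was 0.81 for OPC against NSC, beside -0.06 over all genes without the filter. The 2 comparisons share the OPC arrays.

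Several type II classical cadherins read highest in OPC. Cdh10, a brain cadherin, read 9.24 and 9.58 in OPC, 7.0 and 6.94 in AST, and 6.60 and 3.85 in NSC. The NSC arrays disagree widely, with 1 near the AST level and 1 near the lowest of all arrays. OPC was above both other parents, by 4.19 ± 0.75 (SE) over NSC (adjusted p = 0.00121) and by 2.44 ± 0.75 over AST (adjusted p = 0.021, and 0.0595 to 0.0967 without any 1 of the 4 arrays compared). Cdh19, known from the neural crest and Schwann cell lineage, read 6.64 and 6.57 in OPC and between 2.89 and 3.5 on the 10 other arrays. Cdh20 read 8.22 and 7.87 in OPC and 5.61 to 6.06 elsewhere. Of the 4 measured Schwann and neural crest markers only Erbb3 followed Cdh19, at 7.73 and 7.82 in OPC and at most 4.69 elsewhere. Foxd3 lay below the median in every group. Ngfr had its lowest mean in OPC, 5.14, and Sox10 read between 6.11 and 6.45 on all arrays. The OPC marker list moved with these genes, its summed level lying between 61.4 and 63.53 in OPC and between 29.37 and 40.44 in the other groups, and the part of cell identity in these differences was not tested.

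Of the 7 tested delta protocadherins, 4 were higher and 2 lower in OPC than NSC, and Pcdh7 did not pass on the probe set used. In that comparison 27.1% of all tested genes were higher and 24.3% lower. Pcdh9, a delta-1 protocadherin, read 10.02 and 10.63 in OPC, 8.31 and 7.90 in NSC, and 6.4 and 6.32 in AST. Pcdh17 read 9.34 and 9.84 in OPC and no more than 4.13 in NSC and AST, a difference of 6.46 ± 0.31 over NSC (adjusted p = 2.2e-07) and 5.79 ± 0.31 over AST (adjusted p = 5.35e-07). Pcdh8, known as paraxial protocadherin or arcadlin, read 7.73 and 8.54 in OPC against 3.36 and 3.46 in NSC. Pcdh18 ran the other way, at 6.43 and 5.87 in OPC, 9.25 and 9.07 in NSC, and 10.19 and 9.83 in AST. Pcdh19 also was lowest in OPC among the parents, with 7.79 and 8.43 against 11.03 and 11.19 in NSC and 9.80 and 9.65 in AST. In each of these genes the arrays of OPC did not overlap those of NSC or AST.

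Members of the other classes differed between OPC and NSC in both directions, where 27.1% of all tested genes were higher and 24.3% lower. The classes are small, so their counts are not read as class traits. The type I classical cadherins had 1 higher and 1 lower, the Fat and Dachsous genes 2 higher and 2 lower, and both tested Celsr genes and 1 of 3 calsyntenins were higher. Cdh4 read 8.32 and 7.59 in OPC, 5.24 and 5.58 in NSC, and 5.59 and 5.54 in AST, and it was 2.55 ± 0.34 above NSC (adjusted p = 0.000192). Cdh3 was 0.79 lower in OPC than NSC (adjusted p = 0.0081), a call that was lost without NSC replicate 2 (0.0618) or OPC replicate 1 (0.0581). Cdh6 read 8.30 and 8.57 in OPC against 4.33 and 4.35 in AST, 4.10 ± 0.57 higher (adjusted p = 0.000266). Celsr2 read 7.31 and 7.43 in OPC against 4.90 and 5.03 in NSC and 5.20 and 5.36 in AST. Celsr3 followed at a smaller size, 0.81 ± 0.17 above NSC (adjusted p = 0.00357), and Dchs1 was 0.93 ± 0.22 above NSC (adjusted p = 0.00591). Fat1 and Fat4 ran the other way against NSC: Fat1 read 10.03 and 10.18 in OPC against 11.60 and 11.27 in NSC, 1.33 lower (adjusted p = 0.000999), and Fat4 was 1.30 lower (adjusted p = 0.00658). Fat4 was lower still in AST, so OPC lay 1.04 above AST (adjusted p = 0.0193). The Fat4 call against NSC was lost without OPC replicate 1 (-0.98), and that against AST without OPC replicate 2 (0.72) or AST replicate 2 (0.55). Clstn1 was 0.87 ± 0.16 above NSC (adjusted p = 0.00131).

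AST and NSC differed in 10 of 28 members, 4 higher and 6 lower in AST, against 30.5% of all genes (15.4% higher, 15% lower). Cdh11, OB-cadherin of mesenchymal cells, was the member with the largest difference, 2.75 lower in AST than NSC (SE 0.52, adjusted p = 0.00393). Its signals were 12.37 and 11.93 in NSC, 9.87 and 8.92 in AST, and 8.98 and 8.84 in OPC. The fibroblast and pericyte marker list moved with it among the parents, its summed level being 80.91 to 86.49 in NSC, 63.44 to 66.88 in AST and 36.42 to 37.09 in OPC; its part in the Cdh11 result was not tested. Cdh13, T-cadherin, which has no cytoplasmic tail, was 1.72 higher in AST than NSC and 2.46 higher in OPC than NSC. Without AST replicate 1 the count of members fell to 5.

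**Figure D2:**
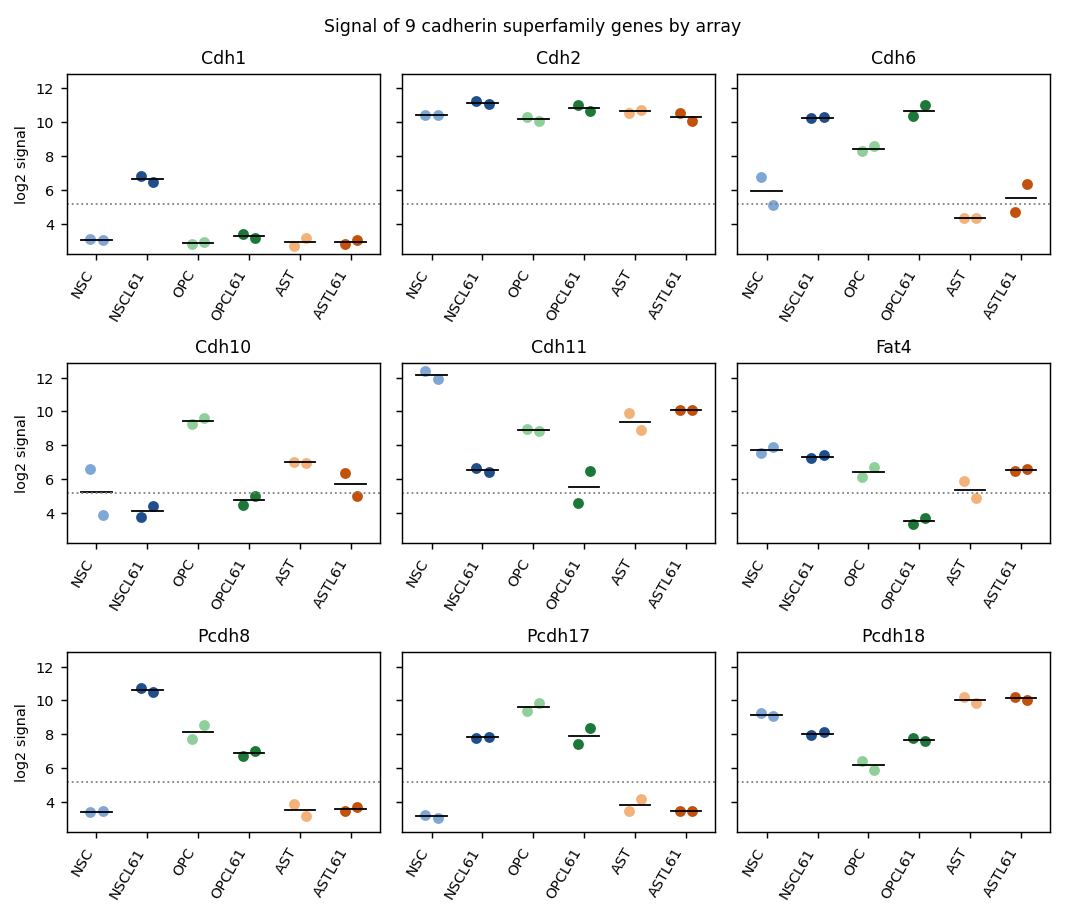
Log2 signal of 9 cadherin genes by array, with a horizontal line at each group mean and a dotted line at 5.183, the median of all values. Pcdh8 reaches 10.75 and 10.51 in NSCL61 against 3.36 and 3.46 in NSC, and Cdh11 falls from 12.37 and 11.93 to 6.65 and 6.4.

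NSCL61 against NSC asks what differs in the line made from the stem cells. 13 of 28 tested members passed the threshold, 7 higher and 6 lower, where 37.8% of all tested genes passed (20.7% higher, 17.1% lower). Without the filter 14 of 33 members passed, against 27.1% of all genes, Pcdh1 being the added one. Among type I classical cadherins, 3 rose and 1 fell of 5 tested. Cdh1, E-cadherin, read 6.82 and 6.49 in NSCL61 and 3.10 and 3.00 in NSC, and at most 3.37 on all other arrays. It rose by 3.61 ± 0.18 (adjusted p = 1e-06), a 12.2-fold higher signal. Cdh1 had a mean above the median of all values in NSCL61 alone, so it entered the test through that group; with no filter its adjusted p was 7.64e-07.

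Epithelial markers were read beside Cdh1. Of 9 epithelial genes, 6 lay above the median of all values in NSCL61 and 4 in NSC, and the summed level was 51.97 to 52.07 in NSCL61 against 46.16 to 46.22 in NSC. Krt18 read 6.56 and 6.61 in NSCL61 and 3.57 and 3.58 in NSC. Krt19 read 8.93 and 8.76 against 6.35 and 6.47. Epcam was 5.97 and 6.01 in NSCL61 against 6.65 and 6.46 in NSC, and Esrp1 stayed between 3.16 and 3.56 on every array. Whether other cell types contribute to the Cdh1 signal was not tested.

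The remaining type I genes moved less. Cdh2, N-cadherin, read 11.25 and 11.07 in NSCL61 and 10.43 and 10.42 in NSC, a rise of 0.73 ± 0.19 (adjusted p = 0.013). Cdh4, R-cadherin of retina and brain, rose by 1.22 ± 0.34 from 5.24 and 5.58 to 6.59 and 6.67 (adjusted p = 0.0188). Cdh3, P-cadherin, fell by 0.67 ± 0.20 from 5.01 and 5.52 to 4.53 and 4.66 (adjusted p = 0.0241). Its mean lay above the median of all values in NSC alone, so it entered the test through NSC, and its adjusted p with no filter was 0.0273. Leaving out 1 array lost these 3 calls: Cdh2 without NSC replicate 2 (adjusted p = 0.0527) or NSCL61 replicate 1 (0.0899), Cdh4 without NSC replicate 1 (0.094) or NSCL61 replicate 1 or 2 (0.0739 and 0.0875), and Cdh3 without NSC replicate 2 (0.167) or NSCL61 replicate 1 or 2 (0.128 and 0.0682). Cdh15, M-cadherin of muscle, read between 5.33 and 5.79 on all 12 arrays, and of 4 muscle markers the regulators Myod1, Myog and Myf5 lay below the median in every group, while Des lay above it, with group means of 5.87 to 6.15.

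Among the 6 tested type II cadherins 1 rose and 1 fell, where 20.7% of all tested genes were higher and 17.1% lower. Cdh6, K-cadherin, read 10.23 and 10.30 in NSCL61 and 6.73 and 5.13 in NSC. It rose by 4.33 ± 0.57 (adjusted p = 0.000341), and its NSC arrays lie further apart than those of any parent or line but ASTL61. Cdh11 fell by 5.63 ± 0.52, a 49.4-fold lower signal (adjusted p = 3.69e-05), from 12.37 and 11.93 to 6.65 and 6.4. The fibroblast and pericyte list moved with it: 8 of 8 markers lay above the median in NSC and 3 of 8 in NSCL61, where Col1a1 was at 4.74 and 3.88, Pdgfrb at 3.89 and 4.45 and Lum at 3.32 and 3.29. Cdh10 read 3.77 and 4.40 in NSCL61 against 6.60 and 3.85 in NSC, so the groups overlap and it did not pass; without NSC replicate 2 its difference was -2.51 and passed (adjusted p = 0.00624). Cdh13 read 8.23 and 8.07 in NSCL61 and 5.78 and 6.30 in NSC, a rise of 2.10 ± 0.19 (adjusted p = 3.03e-05).

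The member with the largest difference was a delta-2 protocadherin, Pcdh8. It rose by 7.22 ± 0.28 (adjusted p = 2.12e-07), from 3.36 and 3.46 to 10.75 and 10.51. This is a 149-fold higher signal, and its NSC level lies under the median of all values. Pcdh17 rose by 4.68 ± 0.31 (adjusted p = 5.08e-06), from 3.24 and 3.01 to 7.75 and 7.85. Pcdh19, a delta-2 protocadherin, fell by 1.98 ± 0.34, from 11.03 and 11.19 to 8.95 and 9.31 (adjusted p = 0.00178). Pcdh18 fell by 1.12 ± 0.20, to 7.93 and 8.13 (adjusted p = 0.00198). Pcdh9 fell by 1.17 ± 0.24, to 7.01 and 6.87 (adjusted p = 0.00447). Pcdh7, BH-protocadherin, did not pass: it read 8.28 and 8.0 in NSCL61, between the NSC values of 8.75 and 7.10. Without NSC replicate 1 its difference was 1.04 and passed (adjusted p = 0.0227). Another Pcdh7 probe set had means of 5.44 in OPC and 8.24 in OPCL61, where the one used had 8.16 and 8.25. That other probe set had means of 7.96 in NSC, 9.34 in NSCL61 and 7.42 in AST. Its NSCL61 arrays read 9.82 and 8.87, above its NSC arrays at 8.52 and 7.41, so the reading for NSCL61 depends on the probe set. With the mean of its 3 probe sets Pcdh7 passed for OPCL61 against OPC (1.16 higher, adjusted p = 0.0361 in limma).

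Pcdh1, a delta-1 protocadherin that lay under the median in every group, read 4.53 and 4.62 in NSCL61 and 3.5 and 3.72 in NSC. Fitted with no filter it was 0.96 ± 0.14 higher in NSCL61 (adjusted p = 0.000847) and 0.70 ± 0.14 higher in OPCL61 than OPC (adjusted p = 0.0035), all at levels that may be background. Celsr1, also under the median, was 0.93 ± 0.20 higher in OPC than NSC with no filter (adjusted p = 0.00452).

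None of the 4 Fat and Dachsous genes or the 2 tested Celsr genes passed in NSCL61 against NSC, where 37.8% of all tested genes did. Fat1, a giant atypical cadherin, read 10.92 and 10.97 in NSCL61 and 11.60 and 11.27 in NSC. Fat4 read 7.22 and 7.42 against 7.52 and 7.87. Among calsyntenins Clstn1 fell by 1.25 ± 0.16 (adjusted p = 0.000254), from 7.55 and 7.65 to 6.50 and 6.20. Clstn2 and Clstn3 had ranges under 1 over all 12 arrays on the probe sets used. The other Clstn2 probe set ranged from 2.93 to 6.86, with means of 3.03 in NSC, 5.59 in OPC and 6.01 in OPCL61. With the mean of both probe sets Clstn2 passed for OPC against NSC (1.39 higher, adjusted p = 0.0147) and for OPCL61 against NSCL61 (1.71 higher, adjusted p = 0.0114).

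OPCL61 against OPC asks what differs in the line made from OPC. 16 of 28 members passed, 3 higher and 13 lower, where 48.3% of all tested genes passed (24.5% higher, 23.8% lower). Over all 33 members without the filter, 17 passed, against 35.8% of all genes. The median difference was -0.31 over all 33 members and 0.06 over all genes without the filter. All 6 tested type II cadherins passed, 5 of them lower. Cdh10 read 4.45 and 4.99 in OPCL61 against 9.24 and 9.58 in OPC and fell by 4.69 ± 0.75 (adjusted p = 0.000707). Cdh19 fell by 3.17 ± 0.14 to 3.5 and 3.38 (adjusted p = 2.46e-07), the smallest p of the members. Cdh20 fell by 2.19 ± 0.16 to 5.65 and 6.06 (adjusted p = 6.75e-06).

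Cdh11 read 4.57 and 6.47 in OPCL61 against 8.98 and 8.84 in OPC, and it fell by 3.39 ± 0.52 (adjusted p = 0.00055). The 2 OPCL61 arrays are far apart, and both lie below both OPC arrays. The summed level of the fibroblast and pericyte list was 35.47 to 37.8 in OPCL61 and 36.42 to 37.09 in OPC, while single markers differed both ways. Acta2 read 10.4 and 8.36 in OPC against 6.45 and 5.81 in OPCL61, and Dcn read 4.18 and 5.03 against 6.43 and 5.47. Their part in the Cdh11 result was not tested. Cdh13 read 8.79 and 8.72 in OPCL61 against 8.56 and 8.44 in OPC and did not pass. Cdh22 fell by 0.89 ± 0.25 (adjusted p = 0.0144), and the call was lost without OPC replicate 1 (0.0876) or OPCL61 replicate 2 (0.104). Cdh6 rose by 2.25 ± 0.57, from 8.30 and 8.57 to 10.37 and 11 (adjusted p = 0.00931), lost without OPC replicate 1 (0.0516) or OPCL61 replicate 2 (0.059). Cdh2 rose by 0.69 ± 0.19, from 10.29 and 10.05 to 11.05 and 10.68 (adjusted p = 0.0128), lost without OPC replicate 2 (0.0893) or OPCL61 replicate 1 (0.0835).

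Delta protocadherins fell in 4 of 7 tested members and rose in 1, where 23.8% of all tested genes were lower and 24.5% higher. Pcdh9 fell by 2.79 ± 0.24 to 7.51 and 7.57 (adjusted p = 1.72e-05). Pcdh17 fell by 1.69 ± 0.31, from 9.34 and 9.84 to 7.44 and 8.36 (adjusted p = 0.0016), and so stayed above every NSC and AST array. Pcdh8 fell by 1.28 ± 0.28 to 6.72 and 6.99 (adjusted p = 0.00461). Pcdh18 rose by 1.53 ± 0.20, from 6.43 and 5.87 to 7.76 and 7.60 (adjusted p = 0.000215). Pcdh19 read 7.70 and 8.91 against 7.79 and 8.43, with overlapping arrays; without OPCL61 replicate 1 the difference was 0.81 and passed (adjusted p = 0.0309).

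Pcdh10, OL-protocadherin, is read low by the probe set that the selection rule takes. On that probe set the OPC arrays read 5.84 and 6.05 and the OPCL61 arrays 4.07 and 4.39, a fall of 1.71 ± 0.13 (adjusted p = 7.65e-06). Of its 6 probe sets, 3 others read 9.20 and 9.63, 9.55 and 9.91, and 8.17 and 8.17 in OPC, against means of 3.54, 3.54 and 3.40 in OPCL61. Their line-minus-parent differences were -5.87, -6.19 and -4.77. The direction is the same on these probe sets and the size depends on which is read. Pcdh10 had a group mean above the median in OPC alone on the probe set used, as did Cdh19 and Fat3. With no filter the adjusted p was 5.9e-06 for Pcdh10, 1.75e-07 for Cdh19 and 3.5e-06 for Fat3.

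**Figure D3:**
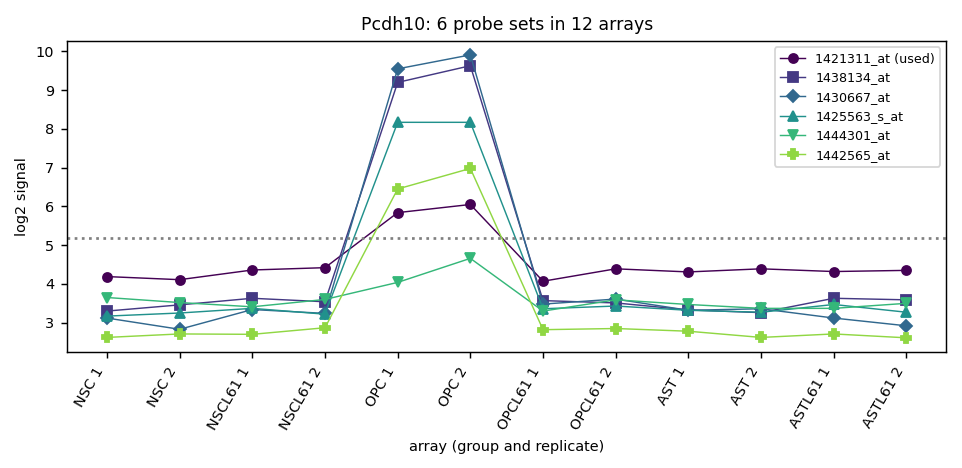
Log2 signal of the 6 probe sets of Pcdh10 by array, with the values of each probe set joined by a line and a dotted line at 5.183. The probe set taken by the rule spans 4.07 to 6.05, while another reads 9.55 and 9.91 in OPC.

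The Fat and Dachsous class fell in 2 of 4 members in OPCL61, where 23.8% of all tested genes were lower. Fat4, the receptor of Dchs1, fell by 2.90 ± 0.31 from 6.08 and 6.72 to 3.33 and 3.67, the lowest level of Fat4 in any group (adjusted p = 6.61e-05). Fat3 fell by 1.92 ± 0.13 from 5.73 and 6.03 to 4.02 and 3.89 (adjusted p = 4.51e-06). Dchs1, the ligand, read 6.78 and 5.99 in OPCL61 against 6.99 and 6.92 in OPC and did not pass; without OPCL61 replicate 1 its difference was -0.97 and passed (adjusted p = 0.00106). Celsr2, of the planar polarity cadherins, fell by 0.90 ± 0.32 (adjusted p = 0.0417). Its OPCL61 arrays read 7.10 and 5.84, and without OPCL61 replicate 2 the difference was -0.27 and the call was lost. The call was also lost without any other single array except OPCL61 replicate 1, with adjusted p of 0.0515 to 0.153, and with the mean of its 2 probe sets. Clstn1 fell by 1.29 ± 0.16, from 8.30 and 8.64 to 7.08 and 7.29 (adjusted p = 0.000142). The OPC markers were lower along with these genes: the summed level of 6 was 61.4 to 63.53 in OPC and 38.23 to 40.44 in OPCL61, and their part in the falls was not tested.

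No tested member passed in ASTL61 against AST by limma, where 3 of 12787 genes did (0.0235%, all higher; 0% lower). Without the filter 0 of 33 members passed, against 0.0165% of all genes. At an unadjusted p under 0.05 there were 2 members and 939 genes (7.34%), and the trended robust prior gave 0 members. Fat4 had the smallest p of the members, 6.48 and 6.61 in ASTL61 against 5.85 and 4.87 in AST, a difference of 1.19 ± 0.31 (adjusted p = 0.37). Cdh22 differed by 0.58 ± 0.25 (adjusted p = 0.655). Cdh10 had the largest difference, -1.29 ± 0.75 (adjusted p = 0.764), with ASTL61 arrays of 6.36 and 5.01. Cdh6 read 4.69 and 6.37 in ASTL61 and 4.33 and 4.35 in AST (adjusted p = 0.709). Cdh11 read 10.09 and 10.10 in ASTL61 against 9.87 and 8.92. A p that misses the threshold does not show that the groups are alike.

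**Figure D4:**
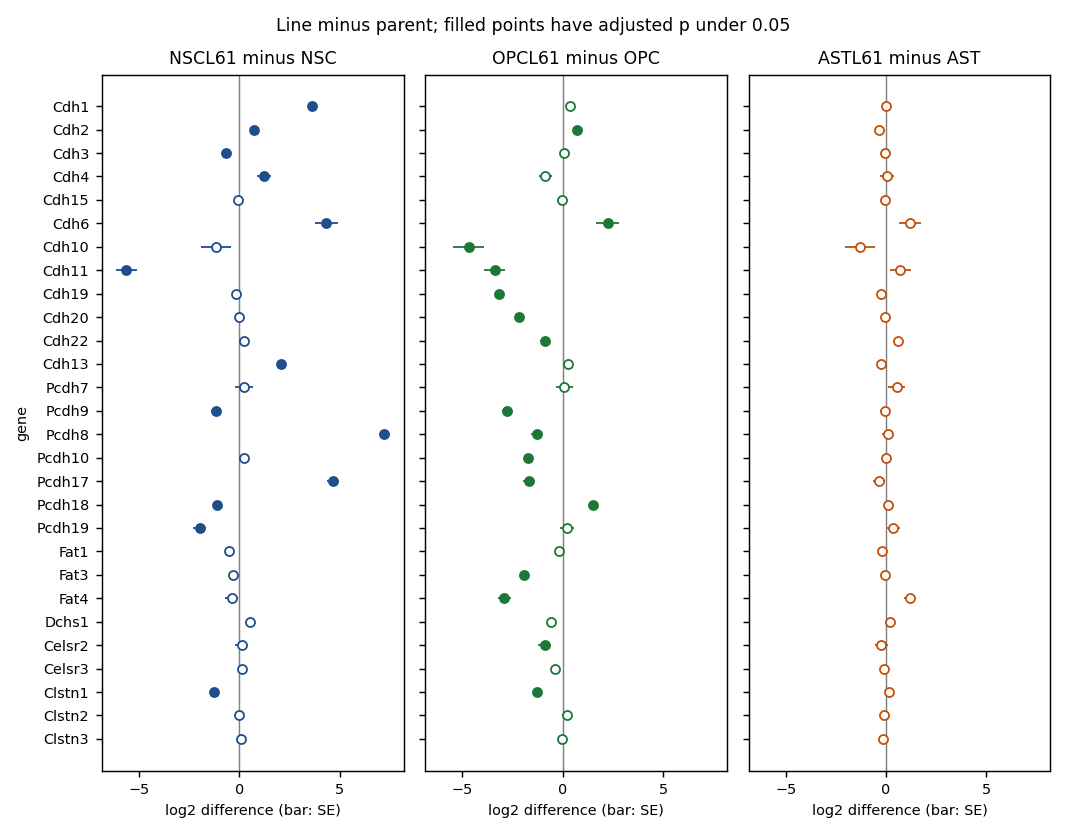
Log2 difference between each HRasL61 line and its parent for the 28 tested cadherin genes, with bars of 1 SE. Filled points passed an adjusted p of 0.05 in limma: 13 in NSCL61, 16 in OPCL61 and 0 in ASTL61.

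Of the 28 tested members, on the probe sets used, 7 passed in none of the 3 line-against-parent comparisons (Cdh15, Celsr3, Clstn2, Clstn3, Dchs1, Fat1 and Pcdh7), 13 passed in 1 and 8 in 2 (Cdh2, Cdh6, Cdh11, Clstn1, Pcdh8, Pcdh9, Pcdh17 and Pcdh18). Of all tested genes 37.8% passed in NSCL61, 48.3% in OPCL61 and 0.0235% in ASTL61. The same split was not counted over all genes, so it is not read as a trait of the members. Of the 8, Cdh2 and Cdh6 rose in both NSCL61 and OPCL61, and Cdh11, Clstn1 and Pcdh9 fell in both. Pcdh8 and Pcdh17 rose in NSCL61 and fell in OPCL61, while Pcdh18 fell in NSCL61 and rose in OPCL61. The difference between the changes was tested itself: the change of the OPC lineage minus that of the NSC lineage was -8.50 for Pcdh8, -6.36 for Pcdh17 and 2.65 for Pcdh18 on the log2 scale. Over all members 17 of 28 differed between these changes, 3 above and 14 below 0, against 37.8% of all genes (18% above, 19.8% below). The changes of the AST and NSC lineages differed in 12 members, 6 each way, against 25.3% of all genes (12.4% above, 12.9% below), or in 7 without NSCL61 replicate 1 or without AST replicate 2, and those of the OPC and AST lineages in 14, 2 above and 12 below 0, against 35.3% (17.2% above, 18.1% below). Each pair of these differences shares arrays.

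The lines were compared with each other, with no parental array in the contrast. ASTL61 differed from NSCL61 in 13 of 28 members, 4 higher and 9 lower in ASTL61, against 32.7% of all genes (16.1% higher, 16.6% lower). Pcdh8 was 7.05 lower, Cdh6 4.73 lower, Pcdh17 4.36 lower and Cdh1 3.77 lower, while Cdh11 was 3.57 higher, Pcdh18 2.09 higher and Clstn1 1.97 higher. The adjusted p-values of these 7 ran from 3.89e-07 to 0.000786. OPCL61 differed from NSCL61 in 8 members, against 26.6% of all genes (13.2% higher, 13.4% lower): Cdh1, Pcdh8, Fat1 and Fat4 were lower and Cdh13, Cdh19, Celsr2 and Clstn1 higher. The Cdh19 means, 3.44 and 3.01, both lie where signal may be background, and its call (adjusted p = 0.0444) was lost with the trended prior (0.0912), with only the arrays compared (0.0719), and without any 1 array of NSC, NSCL61, OPC, OPCL61 or AST (0.0514 to 0.223). The calls of Cdh13, Fat1 and Celsr2 were also lost in at least 1 alternative. Fat4 was 3.82 lower, at 3.33 and 3.67 against 7.22 and 7.42 (adjusted p = 3.56e-05). The Cdh6 arrays of both, 10.23 and 10.30 against 10.37 and 11, stood above those of every other group. Without either NSCL61 array the count of 8 fell to 4. OPCL61 differed from ASTL61 in 16 members, 10 higher and 6 lower in OPCL61, against 36.7% of all genes (18.9% higher, 17.8% lower), led by Cdh6, 5.15 higher, Cdh11, 4.57 lower, and Pcdh17, 4.46 higher. With only the arrays compared, 10 of these passed, and the calls of Cdh2, Cdh4, Cdh19, Cdh22, Dchs1 and Celsr2 were lost. The Cdh19 means, 3.44 in OPCL61 and 3.04 in ASTL61, lie where signal may be background. With no filter 14 of all 33 members passed, 9 higher and 5 lower in OPCL61, and the share of all genes was not counted there.

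Catenins and other partners of the cadherin tail were read from a list of 17 symbols, 15 of them measured and 14 tested. In NSCL61 3 rose and 4 fell, where 37.8% of all tested genes passed, in OPCL61 6 rose and 5 fell, where 48.3% did, and in ASTL61 none passed, where 0.0235% did. Ctnnb1, beta-catenin, which links cadherins to alpha-catenin, read between 12.46 and 13.23 on all arrays. In NSCL61 Lima1 fell by 2.87 ± 0.25 and Vcl, vinculin, by 1.83 ± 0.19, and Ctnnd1, p120 catenin, fell by 0.85 ± 0.13 (adjusted p = 2.83e-05, 8.91e-05 and 0.00089). In OPCL61 the alpha-catenins changed in opposite directions: Ctnna2, the neural one, read 6.31 and 6.88 in OPC and 3.54 and 3.56 in OPCL61, a fall of 3.04 ± 0.17 (adjusted p = 1.12e-06). Ctnna1 rose by 0.95 ± 0.13, from 11.10 and 10.84 to 11.80 and 12.05 (adjusted p = 0.000284). Of the delta-catenins, Ctnnd2 fell by 4.28 ± 0.23, from 10.15 and 10.63 to 6.06 and 6.15 (adjusted p = 8.28e-07), while Ctnnd1 rose by 0.51 ± 0.13 (adjusted p = 0.00981). Vcl rose by 1.86 ± 0.19 (adjusted p = 5.44e-05).

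**Figure D5:**
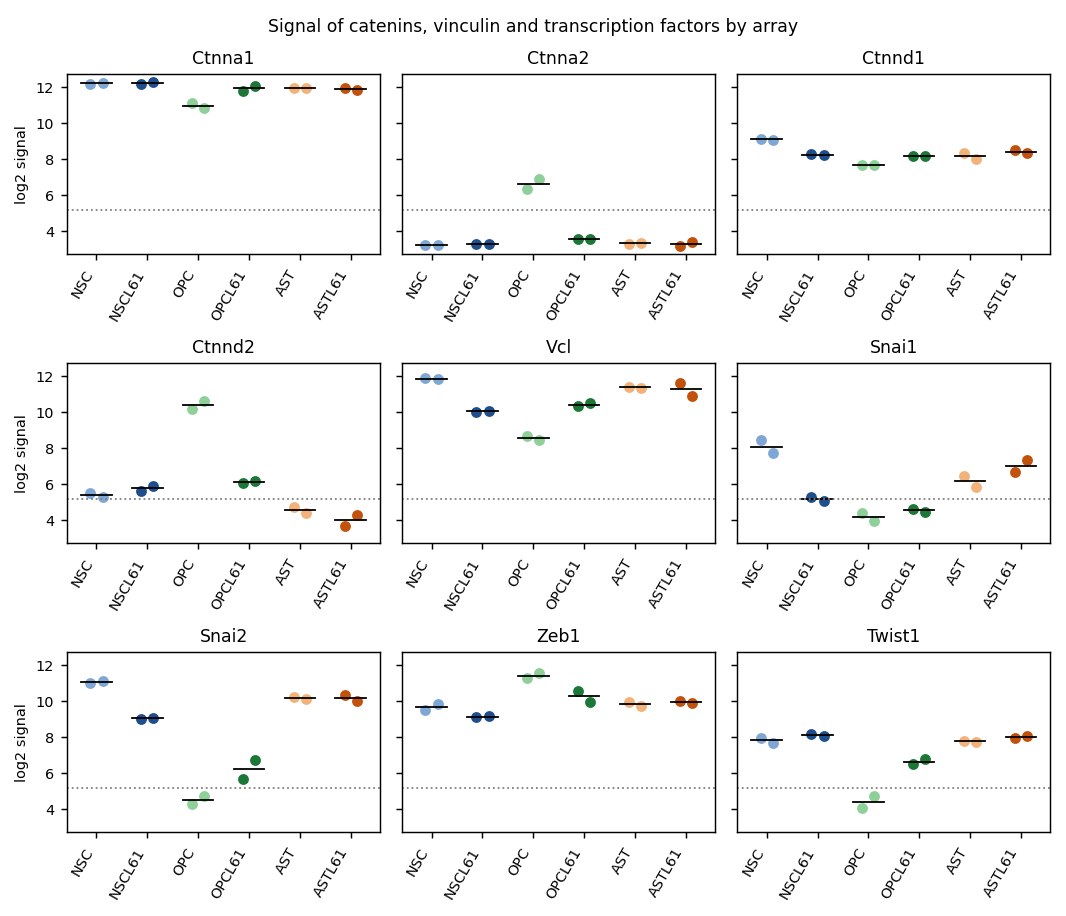
Log2 signal of catenins, vinculin and transcription factors of cadherin genes by array, with a line at each group mean and a dotted line at 5.183. Ctnnd2 reads 10.15 and 10.63 in OPC and 6.06 and 6.15 in OPCL61.

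The 6 transcription factors known as repressors of Cdh1 were all measured. In NSCL61 Snai1 fell by 2.93 ± 0.32 (adjusted p = 9.96e-05), from 8.46 and 7.70 to 5.25 and 5.04. Snai2 fell by 2.03 ± 0.29 (adjusted p = 0.000591), from 10.99 and 11.13 to 9.0 and 9.07. Twist2 rose by 1.04 ± 0.33 (adjusted p = 0.0315). Snai1 also read 4.36 and 3.93 in OPC, where Cdh1 read 2.78 and 2.94. Snai1, Snai2, Twist1 and Twist2 all had their lowest group means in OPC. Zeb1 and Zeb2 had their highest there, at 11.30 and 11.54 and at 9.83 and 9.89. A link between any of these genes and Cdh1 was not tested. In OPCL61 Twist2 rose by 4.67 ± 0.33 and Twist1 by 2.24 ± 0.21 (adjusted p = 4.73e-06 and 2.58e-05). Snai2 rose by 1.71 ± 0.29 (adjusted p = 0.00105), and Zeb1 and Zeb2 fell by 1.17 and 1.58 (adjusted p = 0.00125 and 0.00141). None passed in ASTL61.

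Planar polarity partners of the Celsr cadherins were read from 11 genes. In NSCL61 2 rose and 4 fell (37.8% of all genes passed), and in OPCL61 3 rose and 5 fell (48.3%). Fzd6, a Frizzled receptor, rose by 4.17 ± 0.31 in OPCL61 (adjusted p = 6.49e-06), from 5.04 and 4.26 to 8.43 and 9.21. Vangl1 rose by 1.14 ± 0.11 (adjusted p = 4.06e-05), and Vangl2 fell by 0.73 ± 0.14 (adjusted p = 0.00167). Of 5 measured Fat and Dachsous partners, 2 rose and 1 fell in NSCL61 and 3 rose in OPCL61, beside the same 37.8% and 48.3%. Fjx1, a regulator of the Fat and Dachsous bond, rose by 0.93 ± 0.19 in NSCL61 (adjusted p = 0.00478) and by 0.55 ± 0.19 in OPCL61 (adjusted p = 0.0412). Of 5 measured proteases that cut cadherins, Adam17 rose by 0.75 ± 0.17 in NSCL61 (adjusted p = 0.00761), and in OPCL61 3 rose and 1 fell, beside the same shares.

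The array also holds 15 measured genes of a list of 18 further cadherin-repeat genes, of which 4 were tested. Cdh17 rose by 3.17 ± 0.23 in NSCL61 (adjusted p = 7.9e-06), from 4.35 and 4.18 to 7.19 and 7.69, and stayed at 4.71 or less on all other arrays. Cdh26 rose by 1.99 ± 0.49 in NSCL61 (adjusted p = 0.0112). Pcdh11x fell by 4.21 ± 0.30 in OPCL61 (adjusted p = 5.08e-06), from 7.38 and 8.30 to 3.67 and 3.6. Pcdh15 was not tested on the probe set the rule takes, and another of its probe sets read 8.74 and 9.41 in OPC against 2.38 to 2.89 elsewhere.

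Neighbouring members did not share 1 pattern. Pcdh8 and Pcdh17 on chromosome 14 rose together in NSCL61 and fell together in OPCL61, while Pcdh9, further along after Pcdh20, fell in both. Cdh6 and Cdh10 on chromosome 15 went opposite ways in OPCL61. Pcdh10 and Pcdh18, with only Pabpc4l between them on chromosome 3, also went opposite ways there. Cdh3 and Cdh1, adjacent on chromosome 8, went opposite ways in NSCL61. Cdh8 and Cdh5, on either side of Cdh11 on chromosome 8, read 2.97 to 3.42 and 3.63 to 4.04 over all arrays. VE-cadherin, the product of Cdh5, is endothelial, and of 10 endothelial markers 2 or 3 lay above the median in each group. Pecam1, Tek and Cldn5 lay below it in every group, while Flt1, with group means of 5.74 to 8.47, and Kdr, with 5.85 to 6.99, lay above it in all.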

How the data were processed

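Gene expression was measured on 12 single-colour biotin arrays, with 5 µg of total RNA labelled by in vitro transcription, as the labels' protocols state. The values deposited by the authors are log2 signals of 45101 probe sets, 64 of them controls. Array medians lay at 5.157 to 5.211, and the values were used as deposited. For background correction and normalisation, the method is not given in the sources used here. Precision is limited by the number of arrays.

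The platform's annotation gave the gene names: 34958 probe sets have 1 symbol and 932 have several. For each gene the single-symbol probe set with the highest mean over 12 arrays was taken, then kept where a group mean exceeded 5.183, which left 12787 genes. Group means were fitted in limma 3.58.1 under R 4.3.3 and version 1.17.8 of data.table, with 6 residual degrees of freedom, and 9.303 after moderation. The tests are 2-sided contrasts with Benjamini-Hochberg adjustment over all tested genes and a threshold of 0.05. The fit was run on simulated data with normal noise and changes in NSCL61 only. That setting is simpler than these data, so it does not show how the p-values behave here. All members may be named. From each partner list up to 3 genes past the threshold with the smallest p in each line-against-parent comparison were named, besides a few partners such as Ctnnb1 and Pcdh15 and the defining markers. The members and lists were chosen with earlier results of these data known. The Hras and Trp53 transcripts were not analysed here. RefSeq promoter windows were read for 22 of 33 members.

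Alternatives were quantile normalisation, median centring, a filter at the 75th percentile (7.562) or none, averaging the probe sets of a gene, a trended robust prior, the replicate number as a block, only the arrays compared, and each array left out. The labels do not state whether arrays with the same replicate number were paired. Their deviations correlated above 0.1 in 2 of 15 pairs of groups, which cannot exclude a shared culture or batch.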

Additional observations from a re-analysis of the deposited data

Results flagged for a closer look

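The line-minus-parent change of a gene was set against that of another lineage in limma's moderated test of the difference itself, with Benjamini-Hochberg adjustment over all tested genes. Values are differences of 2 log2 changes, and the 3 sets share arrays. The genes below passed an adjusted p of 0.05. Calls lost under an alternative are named with their adjusted p there, in brackets.

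For the OPC lineage minus the NSC lineage, 17 members differed. The difference was below 0 for 14 members, at -8.5 for Pcdh8, -6.36 for Pcdh17, -3.55 for Cdh10, -3.22 for Cdh1, -3.02 for Cdh19, -2.52 for Fat4, -2.18 for Cdh20, -2.08 for Cdh4, -1.95 for Pcdh10, -1.85 for Cdh13, -1.62 for Pcdh9, -1.61 for Fat3, -1.14 for Cdh22 and -1.09 for Dchs1. It was above 0 for 3, at 2.65 for Pcdh18, 2.23 for Cdh11 and 2.18 for Pcdh19. The Cdh11 call (adjusted p = 0.0375) was lost with the replicate block (0.051), with only the arrays compared (0.0564), without any 1 array of NSC, NSCL61, OPC or ASTL61 (0.051 to 0.104), and without OPCL61 replicate 2, where the difference was 1.28 (0.0546). Cdh10 was lost without NSCL61 replicate 2, either OPC array or OPCL61 replicate 1 (0.0527 to 0.0837). Cdh22 was lost without NSC replicate 2, NSCL61 replicate 1, OPC replicate 1 or OPCL61 replicate 2 (0.0884 to 0.104). Dchs1 was lost without NSC, NSCL61 or OPC replicate 1 (0.0572 to 0.0684).

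For the AST lineage minus the NSC lineage, 12 members differed. The difference was below 0 for 6 members, at -7.15 for Pcdh8, -5.03 for Pcdh17, -3.62 for Cdh1, -3.14 for Cdh6, -2.35 for Cdh13 and -1.08 for Cdh2. It was above 0 for 6, at 6.32 for Cdh11, 2.32 for Pcdh19, 1.56 for Fat4, 1.39 for Clstn1, 1.24 for Pcdh18 and 1.13 for Pcdh9. Fat4 was lost without NSC replicate 2, AST replicate 2 or any 1 array of NSCL61 or ASTL61 (0.0565 to 0.0962). Pcdh9 was lost without NSC replicate 1, ASTL61 replicate 2 or any 1 array of NSCL61 or AST (0.0821 to 0.114), and with the mean of its probe sets (0.0569). Cdh6 was lost without NSC replicate 2 or any 1 array of NSCL61 or AST (0.0504 to 0.0619). Cdh2 and Pcdh18 were each lost without NSCL61 replicate 1 or AST replicate 2 (0.0509 to 0.0655).

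For the OPC lineage minus the AST lineage, 14 members differed. The difference was below 0 for 12 members, at -4.09 for Cdh11, -4.08 for Fat4, -3.41 for Cdh10, -2.9 for Cdh19, -2.75 for Pcdh9, -2.12 for Cdh20, -1.88 for Fat3, -1.69 for Pcdh10, -1.47 for Cdh22, -1.43 for Clstn1, -1.36 for Pcdh8 and -1.33 for Pcdh17. It was above 0 for 2, at 1.42 for Pcdh18 and 1.04 for Cdh2. Cdh10 was lost without any 1 array of OPC, OPCL61 or AST or ASTL61 replicate 1 (0.0524 to 0.103). Pcdh17 was lost without OPC replicate 2, OPCL61 replicate 1, AST replicate 1 or any 1 array of NSCL61 or ASTL61 (0.0607 to 0.137), and with only the arrays compared (0.0742). Pcdh8 was lost without OPC replicate 2, OPCL61 replicate 1, AST replicate 2 or ASTL61 replicate 2 (0.0683 to 0.0951), and with only the arrays compared (0.0535). Cdh2 was lost without OPC replicate 2 or AST replicate 2 (0.0551 and 0.0537).

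Pcdh8 has the largest difference in the comparisons with the NSC lineage, and Cdh11 in that of the OPC and AST lineages. Cdh11 read 4.57 and 6.47 on the OPCL61 arrays.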

How the results depend on the processing

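Over 12 comparisons 159 member calls were made. Under 20 alternatives 113 of them were kept in all, none reversed, and of 177 uncalled differences 42 passed in at least 1. The calls lost in at least 1 alternative were Cdh2, Cdh3 and Cdh4 for NSCL61 against NSC and Cdh2, Cdh6, Cdh22 and Celsr2 for OPCL61 against OPC. There were also 2 for OPC against NSC, 5 each for AST against NSC and OPC against AST, 4 each for OPCL61 and ASTL61 against NSCL61, 6 for OPCL61 against ASTL61, and, for the differences between changes, 4 for OPC minus NSC, 5 for AST minus NSC and 4 for OPC minus AST. Of 198 group levels, 189 moved by less than 1 SD under quantile normalisation. With the filter at the 75th percentile, which tests fewer genes, member counts were 14 for OPC against NSC (22 in the fit reported), 5 for OPCL61 against NSCL61 (8) and 11 for the change of the OPC lineage minus that of the NSC lineage (17). With only the arrays compared, which leaves fewer degrees of freedom, OPCL61 against ASTL61 gave 10 members (16) and 2583 of all genes (4687), and ASTL61 against AST gave 0 genes (3) in limma. With 1 array left out in turn, where a lone array is assumed to vary like the other groups, the lowest and highest counts of all genes were 2999 and 5126 for NSCL61 against NSC, 0 and 100 for ASTL61 against AST (100 without ASTL61 replicate 1), 2117 and 4186 for AST against NSC, 1790 and 3485 for OPCL61 against NSCL61, 2422 and 4455 for ASTL61 against NSCL61, and 2012 and 3560 for the change of the AST lineage minus that of the NSC lineage. Member counts ran from 5 to 11 for AST against NSC, 4 to 10 for OPCL61 against NSCL61 and 7 to 13 for the change of the AST lineage minus that of the NSC lineage. The cause of these moves was not tested. Whether arrays with the same replicate number share more than that number is not stated. With the replicate block 13 members passed for NSCL61 against NSC, 15 for OPCL61 against OPC and 0 for ASTL61 against AST. The correlations of deviations ran from -0.20 to 0.11. Signal near or under the median of all values limits the size of the differences for Cdh1, Pcdh8, Pcdh17 and Cdh19.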
